A study of Mus musculus with 576 samples.

Results

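The genes of the proteasome were followed in haematopoietic stem cells (HSCs) of mouse marrow, sequenced one by one in 6 groups. They were chosen by name, as protein-coding genes whose symbol starts with Psma, Psmb, Psmc, Psmd, Psme, Psmf or Psmg followed by a digit, without the immunoproteasome genes Psmb8, Psmb9 and Psmb10. The rule used no measured value and found 47 genes among 46078 gene entries, 21519 of them protein-coding. Of the 47 genes, 31 encode subunits of the constitutive particle. The other genes encode 3 assembly chaperones of the 19S particle, 4 chaperones of the 20S core, 5 activator genes, the regulator Psmf1, the tissue-restricted core subunits Psma8 and Psmb11, and Psmc3ip. Psmc3ip, a recombination factor named for its binding to an ATPase of the particle, is no proteasome subunit and is counted because its symbol fits the rule.

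The cells were LPS-treated p27 high, p27 low and p27 negative cells, and control p27 high, p27 low and p27 negative cells. LPS, or lipopolysaccharide, is a component of bacterial cell walls that sets off innate immune signalling, and p27 is the cell cycle inhibitor encoded by Cdkn1b. All 6 groups were sorted from marrow of femurs and tibias as CD150+CD48-cKit+Sca1+, a phenotype enriched for long-term HSCs, and the series title calls the markers used to divide them G0 markers. Each group held 96 cells with 1 full-length complementary DNA library per cell. The sources used here name no strain, genotype, age, number of animals, LPS dose or time after it, and do not say what the p27 marker consists of. Each group therefore counts as 1 sample, no difference was tested, and every value describes these cells only.

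The 26S proteasome is the protease that degrades proteins tagged with ubiquitin. Its barrel-shaped 20S core is built from rings of alpha and beta subunits, and the beta rings carry the active sites encoded by Psmb5, Psmb6 and Psmb7. The 19S regulatory particle binds ubiquitin chains, removes them, and unfolds the substrate with a ring of ATPases. Other caps can replace the 19S particle, among them PA28, encoded by Psme1 and Psme2. Interferons are known to raise PA28 and the immunoproteasome subunits, which exchange the catalytic sites and favour peptides for presentation by major histocompatibility complex (MHC) class I molecules. HSCs are known to make protein slowly and to depend on tight control of protein quality.

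Cells with at least 50000 reads in genes were kept, 547 of 576 in all. These were 93 p27 high, 90 p27 low and 92 p27 negative LPS cells, and 84 p27 high, 93 p27 low and 95 p27 negative control cells. They held from 52163 to 1942773 gene reads, and the group medians ran from 224003 in control p27 low to 439918 in LPS p27 negative cells. A gene's level in a group is given as CPM, its summed reads per 1000000 summed gene reads. A fold was taken on the log2(CPM + 1) scale, which understates differences of low genes, and a gene was called past the fold at 1.5-fold or more. Folds were computed for the 9744 genes with a mean of at least 10 CPM over the 6 groups, and 46 of the 47 genes passed this filter. Each group was also split by cell number into 3 parts, and the ranges over them describe spread among cells, not between animals. How often such ranges separate between LPS and control over all genes was not computed. Reads are copies made by amplification without molecular identifiers, so intervals cover counting error only. In bulk sums of this kind fewer transcribing cells and less RNA per cell cannot be told apart. RNA of the gate was present: Kit, the stem cell factor receptor, was at 213 to 542 CPM and Slamf1, which encodes CD150, at 52.5 to 106 CPM. Cd48 was at 3.96 to 17.5 CPM. Marker lists of neutrophils and monocytes and of T and NK cells were not at 0, at 116 to 303 and 60.3 to 362 CPM in sum.

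Proteasome RNA made up 0.775% to 0.968% of all gene reads, with the highest share in LPS p27 negative cells and the lowest in control p27 high cells. The 47 genes together held 9037, 9582 and 9677 CPM in LPS cells (p27 high, low, negative), against 7754, 8702 and 9013 CPM in control cells of the same classes. The control p27 high sum was below those of the other 5 groups, and in each class the LPS sum was above the control sum. Over the 3 parts of the cells the sum ran from 8670 to 9897 CPM in LPS p27 high cells and from 7425 to 8137 CPM in control p27 high cells, which did not overlap. The part ranges were 8957 to 10290 CPM for LPS and 8415 to 9193 CPM for control in p27 low cells, and 9018 to 10070 CPM for LPS and 8900 to 9168 CPM for control in p27 negative cells, and both pairs overlapped.

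**Figure D1:**
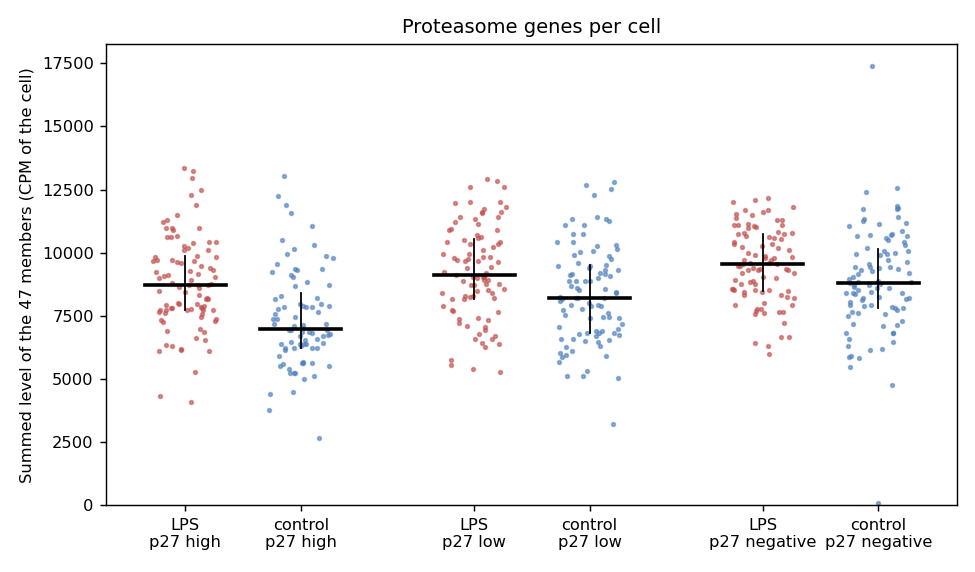
Summed level of the 47 proteasome genes in single cells, in CPM, by group (LPS left of control in each p27 class). Each dot is 1 cell, the black bar is the median and the line spans the quartiles. The lowest median, 6988 CPM, belongs to control p27 high cells, and the highest, 9555 CPM, to LPS p27 negative cells.

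The sum was similar from cell to cell. Its median was 8722, 9125 and 9555 CPM in LPS cells (p27 high, low, negative), and 6988, 8220 and 8796 CPM in control cells (p27 high, low, negative). The quartiles of LPS p27 high cells, 7721 and 9886 CPM, lay above those of control p27 high cells, 6239 and 8397 CPM, though the ranges overlapped. The coefficient of variation over cells was 20.9%, 20.05% and 15.3% in LPS cells (p27 high, low, negative), against 26.1%, 22.9% and 23.7% in control cells. One control p27 negative cell, with 97.9% of its reads in mitochondrially encoded genes, had only 89.6 CPM of proteasome RNA.

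CPM is a share of each group's RNA and does not give amounts per cell. Reads of all genes per read of the ERCC spike-in RNAs were 25.6, 23.9 and 44.8 in LPS cells (p27 high, low, negative), against 9.37, 9.84 and 12.7 in control cells. Scaled to spike-in reads, the median log2 fold of the proteasome genes with LPS was 1.67, 1.42 and 1.92 in the high, low and negative p27 classes, while the median over all genes was 1.33, 1.09 and 1.67. On that scale each of the 46 genes was higher with LPS in every class, so each gene given below as lower with LPS was lower in CPM and higher per spike-in read. LPS and control cells stand in separate tables, and whether the same amount of spike-in was added to both is not given, so RNA content per cell and spike-in amount cannot be told apart.

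Levels of different genes were set side by side only per length, as reads per kilobase of exon per 1000000 reads (RPKM). The highest means over the 6 groups were 326 RPKM for Psma6, an alpha subunit, 281 RPKM for Psmb2, a non-catalytic beta subunit, and 235 RPKM for Psme1, the alpha subunit of PA28. The lowest among the 46 genes past the filter were 5.61 RPKM for Psme4, which encodes the activator PA200, 10.3 RPKM for Psmd9, a chaperone of the 19S base, and 11.3 RPKM for Psma8, a core subunit known from the testis. With the length of the longest protein-coding transcript in place of all exons, an alternative added after seeing the data, Psme1 stood first at 466 RPKM, ahead of Psmb2 at 394 and Psma6 at 386 RPKM.

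The proteasome genes varied less between groups than most genes. The ratio of the highest to the lowest of the 6 group levels had a median of 1.55 over the 46 genes. The median was 1.48 over the 31 subunits of the constitutive particle, against 2.22 over all 9744 genes. Among the 2595 genes with a mean level between the quartiles of the 46 genes, 77.6 and 274 CPM, the median was 1.81. A spread of 2-fold or more was found in 7 of 46 genes, or 15.2%, against 37.4% of these 2595 genes and 58.3% of all genes. No comparison took 25 of the 46 genes past the fold, or 54.3%, against 18.5% of all genes. The subunits that stayed within the fold everywhere included Psma1, Psma7, Psmb1, Psmb2, Psmb4, Psmc1, Psmc2, Psmc3, Psmd1, Psmd7 and Psmd14. Psmd14 encodes the enzyme that removes ubiquitin chains at the 19S lid.

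The position of the lowest group was not spread evenly. Of the 46 genes, 25 had their lowest level in control p27 high cells, or 54.3%, against 16.2% of all genes. The highest level fell in LPS p27 low cells for 14 genes, or 30.4%, against 13.3% of all genes, and in LPS p27 negative cells for 13, or 28.3%, against 11.5%. It fell in control p27 high cells for 2 genes, or 4.35%, against 23.3%.

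In the comparison of LPS with control, the median log2 fold of the 46 genes was 0.22 in p27 high, 0.15 in p27 low and 0.12 in p27 negative cells, beside medians of -0.09, -0.17 and -0.13 over all genes. Over the 3 parts of the cells the median of the proteasome genes ran from 0.25 to 0.31 in p27 high cells, from 0.05 to 0.21 in p27 low cells and from -0.12 to 0.22 in p27 negative cells. In p27 negative cells its sign therefore differed between parts. In p27 high cells the median over all cells, 0.22, lay below its range over the parts, and leaving out each part gave 0.18 to 0.26. The genes were higher with LPS in 30 of 46 cases in p27 high cells, 28 in p27 low cells and 29 in p27 negative cells, beside 44.03%, 39.4% and 40.3% of all genes. Of the 46, 16 genes, or 34.8%, were higher with LPS in all 3 classes, against 16.1% of all genes, and 5 genes, or 10.9%, were lower in all 3, against 30.8%. The 5 were Psma8, Psmb5, Psmd1, Psmd5 and Psmd10, of which Psmb5 and Psmd5 kept that sign in all 3 classes with TMM factors and with the mean of per-cell CPM, while Psma8, Psmd1 and Psmd10 turned in 1 or 2 classes under one or both of these.

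Few proteasome genes passed the fold with LPS. In p27 high cells 8 of 46 were past it higher and 1 lower, while 14.5% of all genes were past it higher and 23.6% lower. In p27 low cells the counts were 5 higher and 1 lower, beside 13.6% and 28.8% of all genes. In p27 negative cells they were 3 higher and 1 lower, beside 11.5% and 21.4% of all genes. In p27 low and p27 negative cells the share past the fold higher was thus close to or below that of all genes. With TMM factors, which scale the groups by the bulk of their genes, 13, 11 and 5 members were past it higher in the high, low and negative p27 classes, beside 18.8%, 17.9% and 14.5% of all genes, so in p27 low cells the share of members was then above the background. None of the 46 was past the fold in all 3 classes.

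Markers of the gate and of other cells differed between LPS and control as well. Ly6a, which encodes Sca1 and is known to respond to interferon, had 1220, 1090 and 455 CPM in LPS cells (p27 high, low, negative), against 331, 122 and 49.7 CPM in control cells. The 6 megakaryocyte markers summed to 1082, 1260 and 1403 CPM in LPS cells, against 1466, 1845 and 1895 CPM in control cells, and the 8 erythroid markers to 58.1, 184 and 150.5 CPM in LPS cells, against 56.4, 285 and 286 CPM in control cells. The 9 neutrophil and monocyte markers summed to 287, 133 and 119 CPM in LPS cells, against 303, 260 and 116 CPM in control cells, and the 8 B cell markers summed to 31.3 to 45.4 CPM in LPS cells and 61.2 to 83.6 CPM in control cells. The 7 T and NK cell markers summed to 67.3, 362 and 138 CPM in LPS cells, against 60.3, 152 and 170 CPM in control cells, with Cd3d, Cd3e and Cd3g at or near 0 in every group. Among them Gzmb had 10.6, 188 and 16.7 CPM in LPS cells and was listed at 0 in control cells, and a single cell held 92.9%, 60.8% and 37.4% of its reads in LPS cells. The part of such cells in the proteasome levels was not tested.

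**Figure D2:**
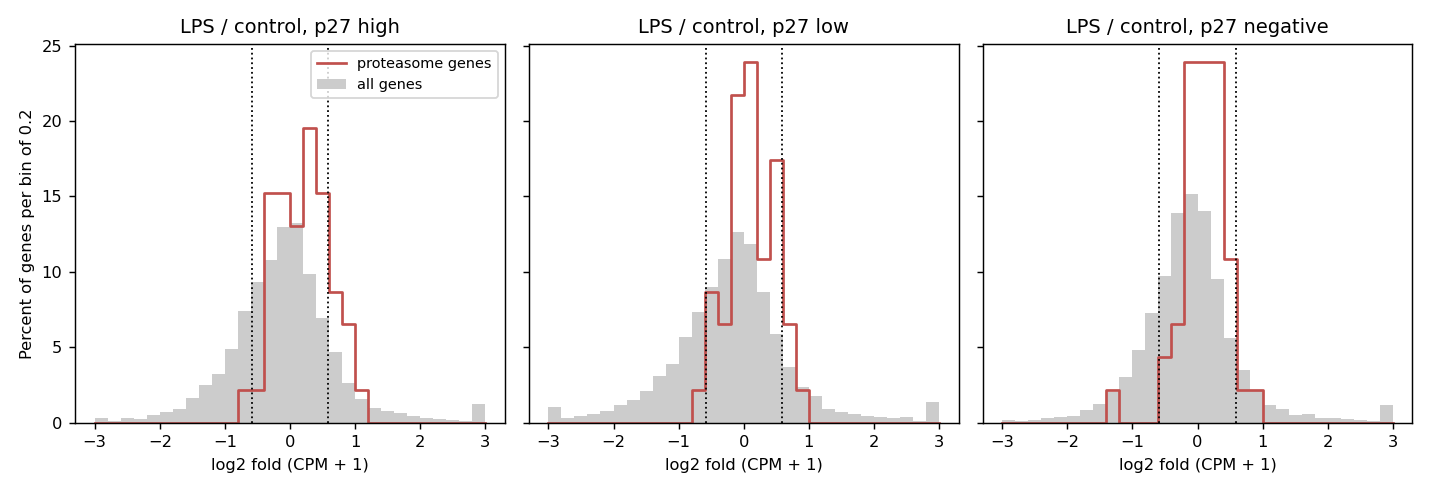
Distribution of log2 folds of LPS over control in the high, low and negative p27 classes, for all 9744 genes (grey) and for the 46 proteasome genes (red), as the share of each set per bin. Dotted lines mark 1.5-fold, the end bins hold everything beyond 3, and the proteasome genes lie between -1.38 and 1.02 while all genes reach 11.4.

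Among the 7 alpha subunits, which form the outer rings of the core and its gate, 5 were higher with LPS in each class, and 1 passed the fold. Of all genes, 14.5%, 13.6% and 11.5% were past it higher in the high, low and negative p27 classes. The median log2 folds over all genes were -0.09, -0.17 and -0.13. The alpha subunits summed to 1805, 2007 and 1818 CPM in LPS cells (p27 high, low, negative), against 1550, 1876 and 1766 CPM in control cells. Psma4 had 178, 179 and 141 CPM in LPS cells (p27 high, low, negative), against 103, 141 and 113 CPM in control cells, with log2 folds of 0.78, 0.34 and 0.31. Its control p27 high level was the lowest of the 6, and that class alone passed the fold. Psma2 had 204, 248 and 233 CPM in LPS cells (p27 high, low, negative), against 137, 173 and 181 CPM in control cells, so that every LPS group stood above every control group. Its log2 folds, 0.57, 0.52 and 0.36, stayed under 1.5-fold. The share of all genes with that order of groups was not computed, and 16.1% were higher with LPS in all 3 classes.

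Among the beta subunits none passed the fold with LPS. The 4 non-catalytic subunits Psmb1, Psmb2, Psmb3 and Psmb4 summed to 956, 1117 and 1089 CPM in LPS cells (p27 high, low, negative), against 861, 1006 and 1036 CPM in control cells. Their log2 folds lay between -0.06 and 0.31. Psmb4, at chr3:94884093-94886961 on the minus strand, was the only one of the 4 with a positive fold in every class, at 0.22, 0.17 and 0.23.

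The 3 constitutive catalytic subunits did not move alike. Psmb5 carries the chymotrypsin-like site and lies at chr14:54614119-54618022 on the minus strand of mm10, like all positions here from the GENCODE M21 annotation unless stated. It had 77.4, 79.7 and 72.8 CPM in LPS cells (p27 high, low, negative), against 92.9, 91.1 and 107 CPM in control cells, with log2 folds of -0.26, -0.19 and -0.55. Every LPS group was below every control group, although none of the differences reached 1.5-fold. The share of all genes in that order was not computed, and 30.8% were lower with LPS in all 3 classes. Over the parts of the cells Psmb5 ran from 70.7 to 77.5 CPM in LPS p27 negative cells and from 100 to 121 CPM in control p27 negative cells, which did not overlap, while the p27 high and p27 low ranges did. Psmb6, the caspase-like subunit, had 295, 261 and 296 CPM in LPS cells (p27 high, low, negative), against 218, 297 and 258 CPM in control cells. Psmb7, the trypsin-like subunit, had 93.2, 105 and 127 CPM in LPS cells (p27 high, low, negative), against 75.02, 92.9 and 117 CPM in control cells. Psmb6 was higher with LPS in the p27 high and negative classes and Psmb7 in all 3, each under 1.5-fold. A processed pseudogene of Psmb6, Psmb6-ps2, held 22.9 to 33.7 CPM, so reads may be split between the copies, and Psmb7 overlaps Nek6 on the other strand.

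The inducible counterparts replace these subunits in the immunoproteasome, Psmb8 for Psmb5, Psmb9 for Psmb6 and Psmb10 for Psmb7. Psmb8 had 503, 554 and 520 CPM in LPS cells (p27 high, low, negative), against 388, 390 and 396 CPM in control cells. Per exon length Psmb8 stood at 1.73, 1.85 and 1.90 times Psmb5 in LPS cells (p27 high, low, negative), against 1.11, 1.14 and 0.987 times in control cells. Every LPS ratio was above every control ratio, with Psmb5 lower and Psmb8 higher in each class. With the longest transcript as length the ratios were 3.59, 3.84 and 3.94 in LPS cells, against 2.31, 2.36 and 2.05 in control cells, so the size of the ratio depends on the length used and its order does not. The ratio of Psmb9 to Psmb6 was 0.319, 0.416 and 0.409 in LPS cells, against 0.374, 0.328 and 0.446 in control cells, without a common direction. The ratio of Psmb10 to Psmb7 was 6.46, 7.90 and 4.98 in LPS cells, against 7.56, 4.58 and 3.68 in control cells, above control in the p27 low and negative classes only.

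**Figure D3:**
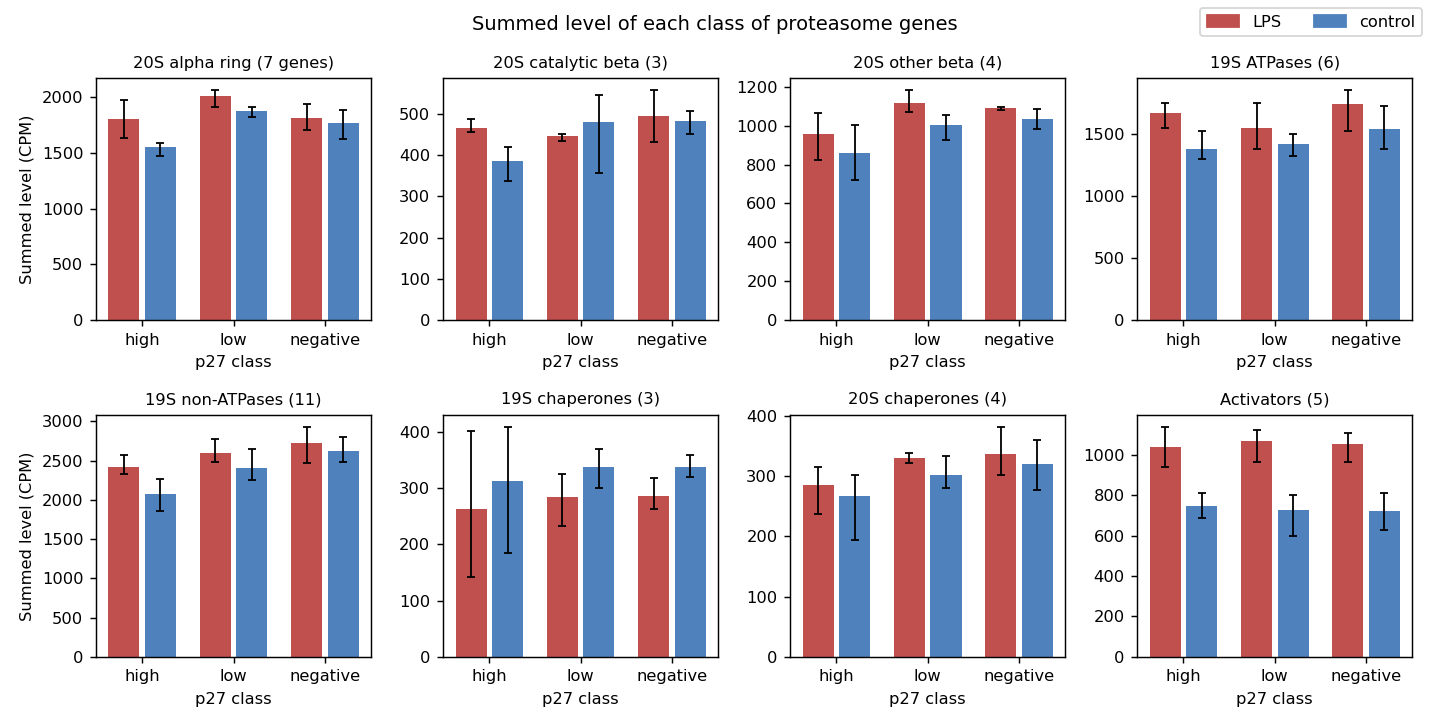
Summed CPM of 8 classes of proteasome genes in the 6 groups, LPS (red) left of control (blue) in each p27 class. Bars are sums over all kept cells and lines span the 3 parts of the cells. The ranges of LPS and control separate in every p27 class for the activators, at 940 to 1139 CPM in LPS cells and 597 to 810 CPM in control cells.

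Of the 17 subunits of the 19S particle, 4 were past the fold higher with LPS in p27 high cells, 1 in p27 low cells and 0 in p27 negative cells, beside 14.5%, 13.6% and 11.5% of all genes, so that the last 2 counts were below the background. The 6 ATPases, which form the unfolding ring, summed to 1666, 1549 and 1738 CPM in LPS cells (p27 high, low, negative), against 1378, 1415 and 1537 CPM in control cells. Psmc4, at chr7:28041707-28050101 on the minus strand, had 450, 418 and 406 CPM in LPS cells (p27 high, low, negative), against 239, 330 and 340 CPM in control cells. Its control p27 high level stood apart from the other 5, and the log2 fold was 0.91 in p27 high cells, between 0.79 and 1.25 over the parts, against 0.34 and 0.25 in the low and negative p27 classes. The 95% Poisson intervals of Psmc4 were 443 to 457 CPM in LPS p27 high cells and 233 to 246 CPM in control p27 high cells. Psmc5 was past the fold in p27 low cells, at 246 CPM in LPS cells and 152 CPM in control cells, with part folds from 0.15 to 1.40. Psmc6 went the other way in the same class, at 156 CPM in LPS cells and 217 CPM in control cells, within 1.5-fold.

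The 11 non-ATPase subunits, which bind and trim ubiquitin chains and form the lid, summed to 2415, 2601 and 2722 CPM in LPS cells (p27 high, low, negative), against 2072, 2411 and 2628 CPM in control cells. In p27 high cells 8 of 11 were higher with LPS and 3 passed the fold, Psmd6, Psmd8 and Psmd11, all lid subunits. Of all genes, 14.5% were past it higher in that class, with a median log2 fold of -0.09. Psmd11, at chr11:80428615-80473248 on the plus strand, had 143, 181 and 130 CPM in LPS cells (p27 high, low, negative), against 93.6, 135 and 168 CPM in control cells. Its log2 folds were 0.61 and 0.42 in p27 high and low cells and -0.37 in p27 negative cells. Psmd8 had 281, 339 and 334 CPM in LPS cells (p27 high, low, negative), against 176, 251 and 314 CPM in control cells, a log2 fold of 0.67 in p27 high cells. Psmd6 had 168, 254 and 183 CPM in LPS cells (p27 high, low, negative), against 104, 175 and 159 CPM in control cells, a log2 fold of 0.69 in p27 high cells. For all 3 the lowest of the 6 levels was that of control p27 high cells. Psmd4, a ubiquitin receptor, and Psmd13 did not pass the fold with LPS, and reads of Psmd13 may include those of Sirt3, which overlaps it on the other strand at a similar level.

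The assembly chaperones of the 19S base were the only one of the 8 classes plotted whose sum was lower with LPS in each p27 class. Psmd5, Psmd9 and Psmd10 together had 264, 284 and 287 CPM in LPS cells (p27 high, low, negative), against 313, 338 and 339 CPM in control cells. The part ranges of LPS and control did not overlap in p27 negative cells, at 263 to 317 and 320 to 360 CPM, and overlapped in p27 high and p27 low cells. Psmd5 had 156, 158 and 163 CPM in LPS cells (p27 high, low, negative), against 186, 224 and 185 CPM in control cells. Psmd10, also called gankyrin, had 40.4, 41.01 and 48.1 CPM in LPS cells (p27 high, low, negative), against 45.3, 59.8 and 70.97 CPM in control cells. Both were lower with LPS in every class, within 1.5-fold. Psmd9 was past the fold higher in p27 low cells, at 85.5 CPM in LPS cells and 54.7 CPM in control cells, with part folds from -0.53 to 1.42.

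The chaperones that build the 20S core summed to 286, 331 and 336 CPM in LPS cells (p27 high, low, negative), against 267, 301 and 320 CPM in control cells. Psmg1, which pairs with Psmg2 to assemble the alpha ring, lies at chr16:95979933-95990960 on the minus strand. It had 76.9, 73.2 and 79.8 CPM in LPS cells (p27 high, low, negative), against 42.5, 79.3 and 84 CPM in control cells. Only its control p27 high level was apart from the rest, and the log2 fold with LPS was 0.84 in p27 high cells, against -0.11 and -0.07 in the low and negative p27 classes. Psmg2 had 124, 173 and 152 CPM in LPS cells (p27 high, low, negative), against 150, 126 and 157 CPM in control cells, within 1.5-fold. Psmg3 and Psmg4 form the second chaperone pair. Psmg3 was past the fold in p27 negative cells, at 43.4 CPM in LPS cells and 27.7 CPM in control cells, but in p27 low cells LPS stood below control, at 33.3 and 48.9 CPM. Psmg4 had 51.3 to 60.8 CPM in LPS cells and 47.7 to 50.9 CPM in control cells.

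The activators were the only one of the 8 classes whose part ranges did not overlap between LPS and control in any p27 class. The 5 genes summed to 1039, 1068 and 1053 CPM in LPS cells (p27 high, low, negative), against 746, 727 and 724 CPM in control cells. Over the parts of the cells the lowest LPS value was 940 CPM and the highest control value 810 CPM. The class median of the log2 folds was 0.46, 0.58 and 0.50 in the high, low and negative p27 classes, beside 0.22, 0.15 and 0.12 over all 46 genes. The separation rested on the PA28 alpha and beta genes, which summed to 857, 837 and 770 CPM in LPS cells, against 576, 535 and 520 CPM in control cells.

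Psme1, which encodes PA28 alpha, lies at chr14:55578123-55581529 on the plus strand. It had 647, 621 and 576 CPM in LPS cells (p27 high, low, negative), against 470, 414 and 382 CPM in control cells. Every LPS group stood above every control group, an order whose share over all genes was not computed. The log2 folds of Psme1 were 0.46, 0.58 and 0.59, positive in each part of the cells. The 95% Poisson interval was 569 to 583 CPM in LPS p27 negative cells and 376 to 388 CPM in control p27 negative cells. After thinning each cell to 50000 reads, Psme1 had a read in 97.8% to 100% of cells in every group, a share too near its ceiling at this level to show whether it differed between groups.

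Psme2, which encodes PA28 beta, lies next to it on the chromosome at chr14:55587441-55591113 on the minus strand. It had 59.3, 65.1 and 54.6 CPM in LPS cells (p27 high, low, negative), against 31.3, 37.03 and 39.8 CPM in control cells. A near-identical single-exon copy, Psme2b, lies at chr11:48945354-48946190 on the minus strand and had 151, 151 and 139 CPM in LPS cells, against 74.2, 83.8 and 97.9 CPM in control cells. The log2 folds were 0.90, 0.80 and 0.45 for Psme2 and 1.02, 0.84 and 0.50 for Psme2b in the high, low and negative p27 classes. How reads shared by the copies were assigned is not given, and Psme2b held 69.4% to 71.9% of the reads of both in every group, so only the sum is read here. Psme2b also overlaps Gm12185 on its own strand, at a mean of 43.02 CPM against 116 CPM for Psme2b. The sum does not settle how reads of that overlap were assigned. The sum was 211, 216 and 194 CPM in LPS cells (p27 high, low, negative), against 106, 121 and 138 CPM in control cells, or 1.99-fold, 1.78-fold and 1.41-fold higher. LPS groups stood above all control groups, an order whose share over all genes was not computed.

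Promoter windows from RefSeq (GRCm38.p6), 250 bases before to 50 bases after the annotated start, were at hand for 39 of the 47 genes, in 42 windows, and for 32841 starts of all genes. For 4 short patterns the windows were searched on both strands, and a match describes letters, not a bound site. The interferon-stimulated response element, written as GAAA, any 2 letters and GAAA, was in 5 of 42 proteasome windows, or 11.9%, against 3.44% of all windows. It occurred at Psmb3, Psmd4, Psmd9, Psme1 and Psmg4. The antioxidant response element TGACNNNGC, the kind of element through which Nfe2l1 is known to act on proteasome genes, was in 6 windows, or 14.3%, against 12.4% of all windows. The CCAAT box was in 14 windows, or 33.3%, against 37.4%, and the ETS core CCGGAAG in 16 windows, or 38.1%, against 8.86%. The ETS core was in windows of 15 of the 39 genes, among them Psmc1 and Psmc2, which stayed within the fold in every comparison. Whether it goes with the folds was not tested. Stretches of 180 bases before and 20 bases from the start are shown for the PA28 genes, which stood apart with LPS, and for Psmd11 and Psmg1. The last 2 were past the fold in p27 high cells and hold an ETS core. Capitals mark the interferon element in Psme1 and the ETS core in Psmd11 and Psmg1. The sequences run 5′ to 3′ on the strand of the gene, at chr14:55578314-55578513 (plus) for Psme1, chr14:55591082-55591281 (minus) for Psme2, chr11:48946391-48946590 (minus) for Psme2b, chr11:80428435-80428634 (plus) for Psmd11 and chr16:95990941-95991140 (minus) for Psmg1.
Psme1: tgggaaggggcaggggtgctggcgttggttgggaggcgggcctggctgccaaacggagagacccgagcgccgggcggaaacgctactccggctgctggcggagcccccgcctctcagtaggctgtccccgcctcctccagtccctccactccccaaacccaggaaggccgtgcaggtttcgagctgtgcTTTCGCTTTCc
Psme2: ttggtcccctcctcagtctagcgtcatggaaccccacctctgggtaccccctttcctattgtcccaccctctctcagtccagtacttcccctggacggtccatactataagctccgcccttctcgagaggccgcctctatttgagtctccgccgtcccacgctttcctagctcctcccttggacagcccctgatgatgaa
Psme2b: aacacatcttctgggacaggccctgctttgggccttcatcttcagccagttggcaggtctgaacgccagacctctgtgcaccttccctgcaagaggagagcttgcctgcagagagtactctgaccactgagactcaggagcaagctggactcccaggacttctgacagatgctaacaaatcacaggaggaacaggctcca
Psmd11: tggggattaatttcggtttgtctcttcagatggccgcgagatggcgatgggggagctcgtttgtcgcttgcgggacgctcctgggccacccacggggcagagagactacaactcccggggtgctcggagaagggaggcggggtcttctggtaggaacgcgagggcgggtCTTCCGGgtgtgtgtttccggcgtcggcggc
Psmg1: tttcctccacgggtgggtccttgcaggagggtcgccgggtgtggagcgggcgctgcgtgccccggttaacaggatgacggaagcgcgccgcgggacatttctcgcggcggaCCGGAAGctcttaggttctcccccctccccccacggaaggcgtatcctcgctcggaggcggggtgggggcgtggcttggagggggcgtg

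In Psme1 the interferon element lay just after the RefSeq start, in the reverse direction. The stretches of Psme2 and Psme2b held none of the 4 patterns, and their longest shared run was 7 bases, although the genes themselves are near-identical. The other 4 genes with an interferon element in the window did not share the pattern of Psme1. Log2 folds with LPS in the high, low and negative p27 classes were 0.08, 0.07 and -0.06 for Psmb3 and 0.15, 0.10 and 0.25 for Psmg4. They were 0.23, -0.04 and -0.35 for Psmd4 and -0.28, 0.63 and -0.11 for Psmd9.

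**Figure D4:**
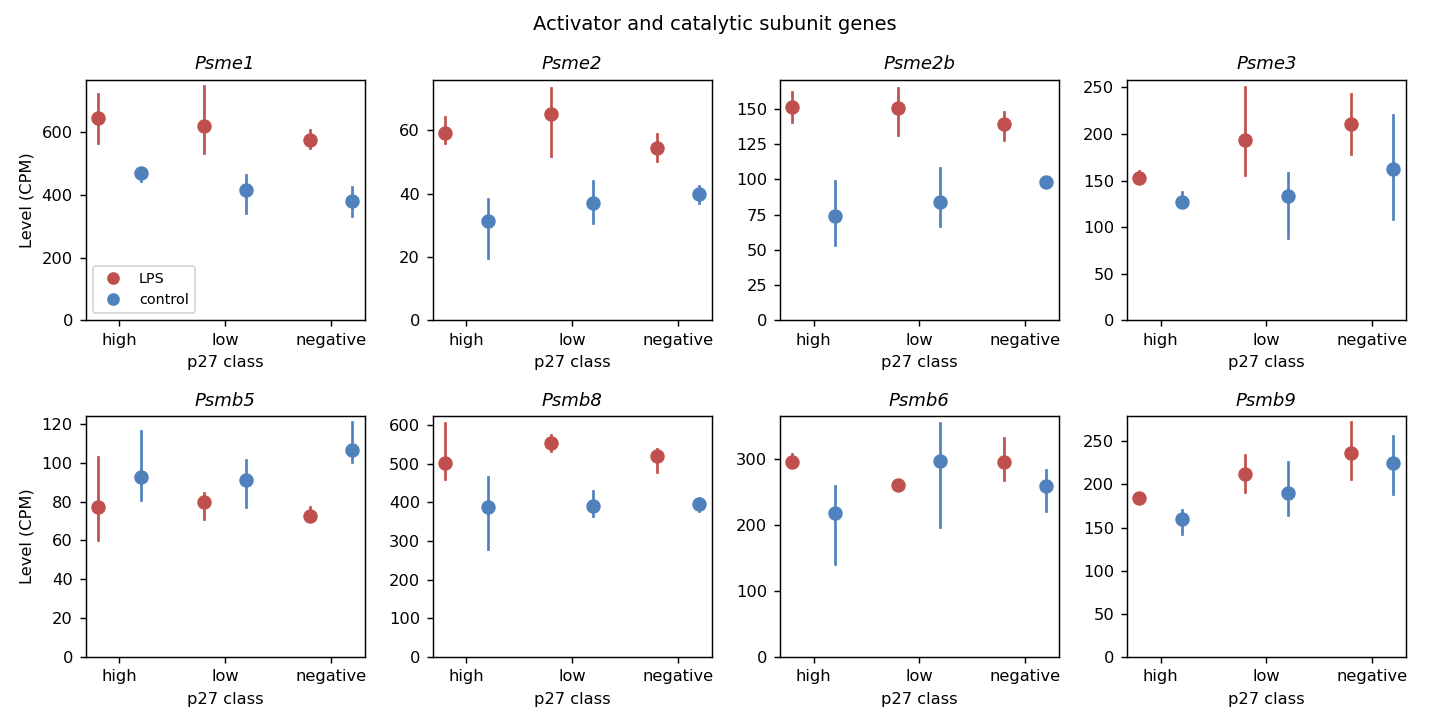
Levels of PA28 genes (Psme1, Psme2, Psme2b), of Psme3, and of the catalytic pairs Psmb5 with Psmb8 and Psmb6 with Psmb9, in CPM, LPS (red) left of control (blue) in each p27 class. Dots are levels over all kept cells and lines span the 3 parts of the cells. Psme1 is at 576 to 647 CPM in LPS cells and 382 to 470 CPM in control cells. Psmb5 is at 72.8 to 79.7 CPM in LPS cells and 91.1 to 107 CPM in control cells.

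Psme3 encodes PA28 gamma, the nuclear member of the family. It had 152, 193 and 210 CPM in LPS cells (p27 high, low, negative), against 127, 133 and 163 CPM in control cells, higher with LPS in each class and within 1.5-fold. Psme4, which encodes the nuclear activator PA200, had 28.9, 37.9 and 72.6 CPM in LPS cells (p27 high, low, negative), against 43.2, 58.7 and 41.1 CPM in control cells. It was past the fold lower in p27 low cells and higher in p27 negative cells. In control p27 high cells a single cell held 35.97% of its reads. Psmf1, an inhibitor of the core known as PI31, had 90.3, 127 and 90.6 CPM in LPS cells (p27 high, low, negative), against 119, 83.7 and 104 CPM in control cells, past the fold in p27 low cells and opposite in sign elsewhere.

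**Figure D5:**
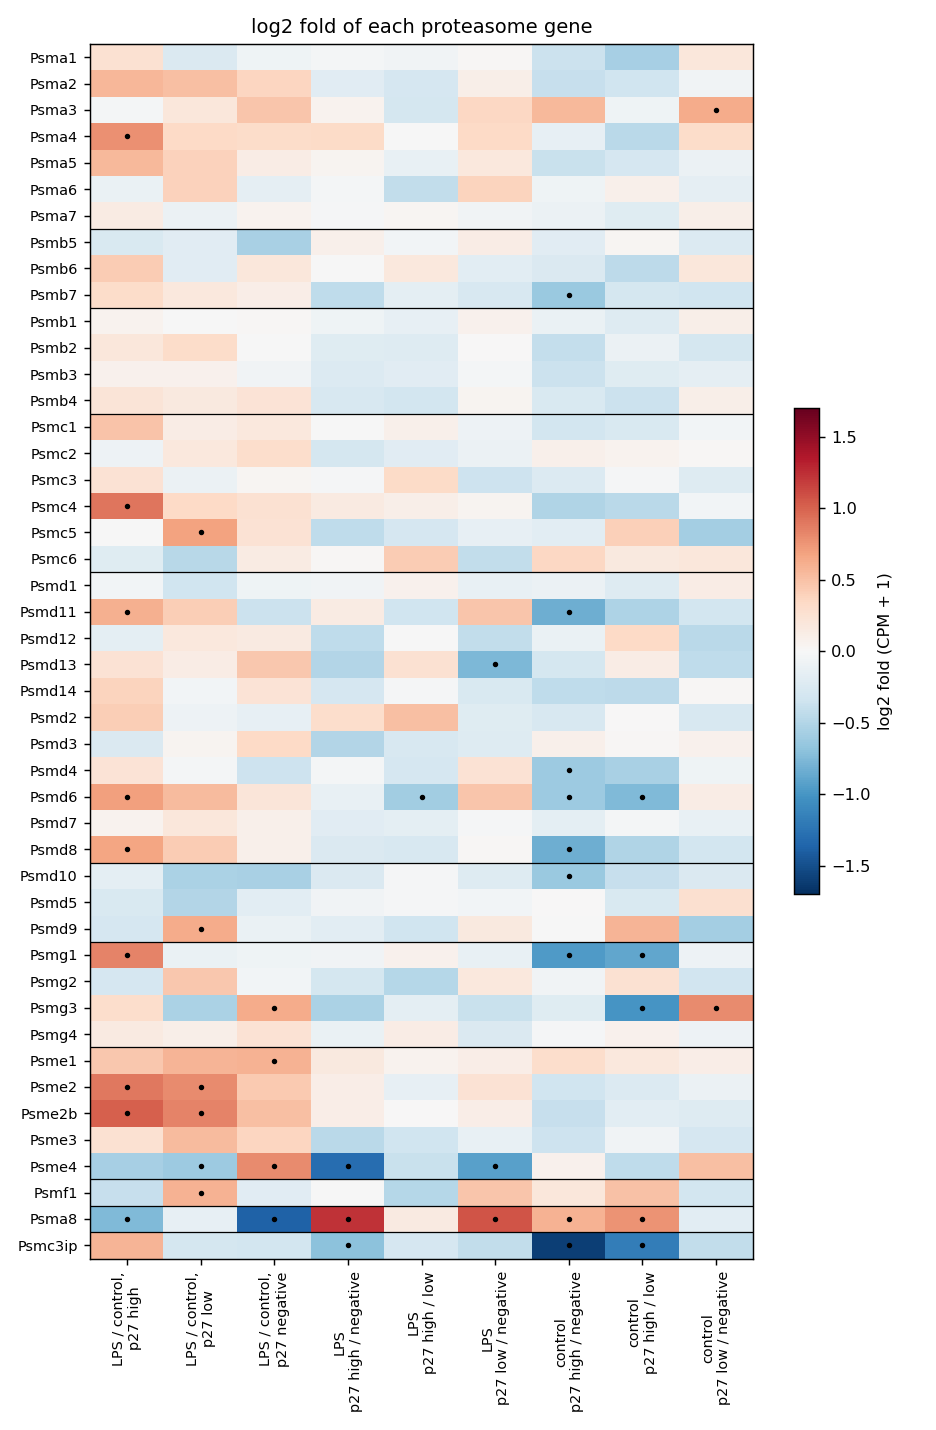
Log2 folds of the 46 proteasome genes in the 9 comparisons, grouped by role with lines between classes. Red is higher and blue lower in the group named first, colours saturate at 1.7 either way, and a black dot marks 1.5-fold or more. Dots are densest for LPS over control in p27 high cells, with 9, and for p27 high over negative in control cells, with 9. Of all genes, 14.5% were past 1.5-fold higher and 23.6% lower in the first of these, and 22% higher and 17.1% lower in the second.

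The p27 classes were compared within each treatment, and in control cells the p27 high class stood lowest. The median log2 fold of p27 high over negative cells was -0.24 in control cells, between -0.37 and -0.23 over the parts, beside 0.04 over all genes, and 37 of 46 genes were lower. Of the 46, 8 were past the fold lower and 1 higher, while 17.1% of all genes were past it lower and 22% higher. The share lower was thus close to that of all genes, and the share higher below it. The 31 subunits of the constitutive particle had a median of -0.27 and 27 of them were lower. The shift thus ran across alpha, beta and 19S subunits. For control p27 high over low the median was -0.21, with 4 genes past the fold lower and 1 higher, beside 15.4% and 17.3% of all genes. For control p27 low over negative it was -0.09, with 2 past the fold higher and 0 lower, beside 19.4% and 15% of all genes. In both of these last comparisons the shares were below those of all genes in each direction.

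The genes past the fold lower in control p27 high cells, at a share close to or below that of all genes, came from several classes. Psmg1, the core chaperone, was at 42.5 CPM in control p27 high cells, against 79.3 CPM in p27 low and 84 CPM in p27 negative cells, log2 folds of -0.88 and -0.97 that were negative in every part. The lid subunits Psmd11 and Psmd8 were at 93.6 and 176 CPM in p27 high cells, against 168 and 314 CPM in p27 negative cells, log2 folds of -0.84 and -0.83. Psmd4, Psmd6 and Psmb7 had log2 folds of -0.62, -0.62 and -0.64 over negative cells, each negative in every part, and Psmd10 had -0.64 with mixed signs over the parts. Psmd6 was also past the fold lower against p27 low cells, at -0.75. Psmg3 was at 23.9 CPM in control p27 high cells, 48.9 CPM in p27 low cells and 27.7 CPM in p27 negative cells, past the fold in both comparisons that involve p27 low cells. Psma3, an alpha subunit, had 74.5 CPM in control p27 low cells and 47.7 CPM in control p27 negative cells, a log2 fold of 0.63 that was positive in each part.

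Other measures moved with the p27 classes too. The 15 G2/M genes had a median log2 fold of -5.14 for p27 high over negative cells in control and -5.13 under LPS, with all 15 lower in both. Mki67, a proliferation marker, had 15.3 and 36.3 CPM in LPS p27 high and low cells and 656 CPM in LPS p27 negative cells, and 11.6, 64.2 and 804 CPM in control cells (p27 high, low, negative). Cdkn1b RNA was at 108, 62.9 and 74.9 CPM in LPS cells (p27 high, low, negative) and 74.6, 68.5 and 81.9 CPM in control cells. Median gene reads per cell were 229696 in control p27 high cells and 390369 in control p27 negative cells. The 6 megakaryocyte markers summed to 1466 CPM in control p27 high cells, 1845 CPM in p27 low and 1895 CPM in p27 negative cells. Over the cells within each group, the summed proteasome level had a Spearman rank correlation of 0.07 to 0.38 with gene reads. It was 0.22 to 0.44 with the number of genes detected and -0.09 to 0.14 with the summed G2/M genes. The part of cycling, depth and megakaryocyte RNA in the proteasome levels was not tested.

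Under LPS the p27 classes lay closer together in CPM, which did not hold for every pair and scaling. The median log2 fold was -0.06 for LPS p27 high over negative cells, with 1 gene past the fold higher and 2 lower, beside 20.9% and 14.9% of all genes. It was -0.14 for LPS p27 high over low cells, with 0 past the fold higher and 1 lower, beside 20.4% and 12.6%. It was -0.03 for LPS p27 low over negative cells, with 1 higher and 2 lower, beside 15.8% and 16.8%. The subunits of the constitutive particle among these were the non-ATPase subunits Psmd6 and Psmd13. Psmd6 was lower in LPS p27 high than low cells at -0.60. Psmd13 was lower in LPS p27 low than negative cells at -0.76.

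Subtracting the LPS log2 folds of p27 negative from those of p27 high cells gave a median of 0.14, between 0.13 and 0.30 over the parts, beside 0.03 over all genes. Over cells with at least 200000 gene reads the median was 0.028, beside 0.019 over all genes. It was past 1.5-fold toward p27 high cells for 5 genes and toward p27 negative cells for 2, beside 20.2% and 19.3% of all genes, so the counts were below the background in both directions. The 5 were Psmd11 at 0.98, Psmg1 at 0.91, Psmc3ip at 0.90, Psmc4 at 0.66 and Psma8 at 0.63, and the 2 were Psme4 at -1.37 and Psmd3 at -0.59. These differences share the control and LPS groups of the comparisons above and add no independent evidence. The sum of Psme2 and Psme2b had its highest fold in p27 high cells and Psme1 its lowest, at 0.46, so the genes of the 2 chains of PA28 did not follow the same order over the p27 classes.

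Proteasome genes were found in most cells. After thinning each cell to 50000 reads, a cell had a read in a median of 34, 35 and 38 of the 47 genes in LPS cells (p27 high, low, negative), against 29.5, 33 and 37 in control cells. The share of cells with a read, as a median over the genes, was 76.3%, 77.2% and 88.6% in LPS cells, against 69.05%, 75.3% and 82.6% in control cells. Without thinning it was 89.8%, 90% and 97.3% in LPS cells, against 80.95%, 87.6% and 93.7% in control cells. Psmc4 had a read in 86.02% of LPS p27 high cells and 70.2% of control p27 high cells, with 95% exact binomial intervals of 77.3% to 92.3% and 59.3% to 79.7%, which overlap. Psmg1 had a read in 51.6% of LPS p27 high cells, with an interval of 41.01% to 62.1%, and in 39.3% of control p27 high cells, with an interval of 28.8% to 50.5%, which overlap.

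The tissue-restricted genes Psma8 and Psmb11 were rare. Psma8, the testis counterpart of Psma7, had 27.7, 24.8 and 11.3 CPM in LPS cells (p27 high, low, negative), against 47.2, 27.3 and 30.97 CPM in control cells. It was past the fold lower with LPS in p27 high and negative cells, but it had a read in 11.1% to 11.96% of LPS cells and 17.2% to 18.9% of control cells at 50000 reads, and a single cell held up to 39.98% of a group's reads. Psmb11, a catalytic subunit of thymic epithelium, had 5 reads in all cells together and no fold. Psmc3ip had 22.6, 27.7 and 37.3 CPM in LPS cells (p27 high, low, negative), against 14.7, 34.4 and 46.6 CPM in control cells. It was found in 45.7% of LPS p27 negative and 43.2% of control p27 negative cells but in 16.7% to 21.5% of cells of the other 4 groups, an order over the p27 classes also seen in the G2/M genes. It overlaps Mlx on the other strand.

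Genes that feed or serve the proteasome were read from lists chosen with earlier results known. Of all genes, 14.5%, 13.6% and 11.5% were past the fold higher with LPS in the high, low and negative p27 classes. Past it lower were 23.6%, 28.8% and 21.4%, and the medians over all genes were -0.09, -0.17 and -0.13. The 12 interferon response genes were all past the fold higher with LPS in every class, with median log2 folds of 3.51, 3.64 and 3.94 in the high, low and negative p27 classes. Their sum was uneven over cells, with 9311, 10179 and 8658 CPM over all reads of LPS cells (p27 high, low, negative) but a cell median of 1381, 8320 and 4496 CPM, against a cell median of 866, 628 and 604 CPM in control cells. The typical LPS p27 high cell thus stood well below the level over all reads of its group. Among 12 genes of MHC class I processing, 11, 10 and 9 were higher with LPS and 2, 4 and 4 were past the fold, none lower. The first of these counts was close to the share of all genes. Tap1, the peptide transporter that receives proteasome products, had 562, 582 and 683 CPM in LPS cells (p27 high, low, negative), against 222, 282 and 316 CPM in control cells. Tapbp, or tapasin, had 481, 507 and 451 CPM in LPS cells, against 263, 197 and 189 CPM in control cells. Nlrc5, a transactivator of class I genes, had log2 folds of 0.51, 2.29 and 2.20 in the high, low and negative p27 classes, the first within the fold, and Erap1, a peptide trimming enzyme, was past it only in p27 low cells, at 0.87.

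Proteasome partners and regulators differed from gene to gene. Of 20 partners, which include shuttle factors, deubiquitinases and the maturation factor Pomp, 15, 10 and 16 were higher with LPS in the high, low and negative p27 classes. Their median log2 folds were 0.10, 0.00 and 0.14, and 4, 1 and 2 were past the fold higher with 1, 0 and 1 lower. Of all genes, 14.5%, 13.6% and 11.5% were past it higher and 23.6%, 28.8% and 21.4% lower, with medians of -0.09, -0.17 and -0.13. The share of partners past it higher was thus below that of all genes in the p27 low and negative classes. Nploc4, a cofactor of the segregase p97, had 75.7 CPM in LPS p27 high cells and 18.3 CPM in control p27 high cells, a log2 fold of 1.99. Nfe2l1, the transcription factor known to induce proteasome genes, had 44.4, 45.3 and 69.1 CPM in LPS cells (p27 high, low, negative), against 38.8, 25.2 and 43.4 CPM in control cells, past the fold in the p27 low and negative classes. Nfe2l2 had 204, 242 and 133 CPM in LPS cells, against 179, 170 and 134 CPM in control cells, within 1.5-fold. Of 6 genes for ubiquitin and its activating enzymes, 5, 2 and 5 were higher with LPS, and the fold was passed only in p27 low cells, by Rps27a higher at 0.68 and Uba6 lower at -0.79.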

How the data were processed

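The authors deposited raw counts of reads per gene and cell, in a table of 288 control cells and a table of 288 LPS cells, not normalized. The submitters' processing notes name GSNAP, HTSeq 0.6.0 and the mm10 build. Strand setting, filters and annotation release were not given in the sources at hand, so reads of overlapping genes on opposite strands may not be told apart. Per the labels, cells were sorted singly into wells, and Nextera XT libraries were built from complementary DNA amplified after Picelli et al. Of all reads, 34.1% were in genes, 2.06% in spike-ins, 52.7% not aligned, 6.86% in no feature and 4.28% ambiguous, and reads outside genes stayed out of all totals.

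Gene IDs were matched to GENCODE M21, which named 45143 of 46078 entries. Cells with at least 50000 gene reads were kept, and 29 were left out. No clustering or doublet removal was done, and no pair of cells held identical counts. Folds used 1 CPM as pseudocount and genes with a mean of at least 10 CPM. With 1 sample per group no test was made. Members named with values were, per comparison, up to 6 each way past 1.5-fold, ranked by the smallest fold over 3 parts of cells, beside the catalytic pairs, the extremes per length, the activators, chaperones and outlying genes. Other members were named to fill their class. The members and lists were chosen with earlier results of these data known. Alternatives were TMM factors (edgeR 4.0.16 in R 4.3.3), per-cell means, spike-in scaling, other minima, pseudocounts and filters, and leaving out parts of the cells. Scripts in Python 3.11.15 with numpy 2.4.6, pandas 2.3.3 and scipy 1.17.1 were tested on simulated data.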

Additional observations from a re-analysis of the deposited data

Results flagged for a closer look

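Psme4, the gene of the activator PA200, was past 1.5-fold in opposite directions in the LPS effects of different p27 classes. Its log2 fold with LPS was 0.81 in p27 negative cells, at 72.6 CPM in LPS cells and 41.1 CPM in control cells. It was -0.62 in p27 low cells, at 37.9 CPM in LPS cells and 58.7 CPM in control cells, and -0.56 in p27 high cells, at 28.9 CPM in LPS cells and 43.2 CPM in control cells. The difference between the classes was not tested. Over the 3 parts of the cells the fold ran from -0.62 to 1.35 in p27 negative cells, from -1.49 to -0.14 in p27 low cells and from -1.35 to -0.07 in p27 high cells. A single cell held 17.3%, 19.7% and 9.97% of its reads in LPS cells (p27 high, low, negative) and 35.97%, 20.9% and 10.6% in control cells. Per spike-in read the fold in p27 low cells was 0.64.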

How the results depend on the processing

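No paired analysis was possible because each group counts as 1 sample and no test was made. Cell numbers may mark a shared position: 11 of the 13 LPS cells left out for few reads had numbers 29 to 32, against 2 of 16 in control, and the parts of the cells, split by number, share it. TMM factors moved the median of all genes by 0.13, 0.16 and 0.12 with LPS in the high, low and negative p27 classes and left the members' median above it at 0.32, 0.32 and 0.24. The members' medians were then 0.36 and 0.31 for LPS in p27 high and low cells. They were -0.15 and -0.21 for LPS p27 high over negative and low, and -0.33 for control p27 high over negative. Past the fold were 14 and 11 members for LPS in p27 high and low cells, and 4 for control p27 low over negative. Of all genes 18.8% and 17.9% were past it higher with LPS in these classes, and 18.3% and 22.9% lower. Per spike-in read the median of all genes moved by 1.42, 1.25 and 1.79 with LPS in the high, low and negative p27 classes. The members' medians were 1.67, 1.42 and 1.92 with 46, 46 and 45 past the fold higher, beside 85.4%, 74.3% and 94.1% of all genes. For p27 high over negative, high over low and low over negative they were -0.87, -0.041 and -0.93 under LPS, with 43 members past the fold in the first and 39 in the last, and -0.67, -0.28 and -0.45 in control, with 28, 8 and 15 past it. The difference of LPS effects reversed to -0.24, while all genes moved by -0.37. All 16, 18 and 17 members lower with LPS in the high, low and negative p27 classes were higher per spike-in read, among them Psma8 at 0.66 in p27 high cells and at 0.35 in the negative class, and Psme4 at 0.64 in p27 low cells. With TMM factors 5, 8 and 7 of them turned higher.

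With the mean of per-cell CPM, 3 members were past the fold for LPS in p27 low cells, 2 higher and 1 lower. Of all genes 11.7% were past it higher and 27.2% lower. In the same setting 6 members were past it for LPS p27 high over negative, 0 for LPS p27 high over low (median -0.045) and 6 for LPS p27 low over negative. Without mitochondrially encoded genes 4 were past it for control p27 low over negative. From 200000 reads per cell the medians were 0.15 for LPS in p27 high cells and 0.028 for the difference of LPS effects, with 2, 9 and 4 members past the fold for LPS p27 high over low, control p27 high over low and control p27 low over negative. Without the top cell of each gene the medians were 0.28 for LPS in p27 high cells and -0.32 for control p27 high over negative, and with a pseudocount of 5 CPM 0 were past the fold for LPS p27 high over low. Over constitutive particle subunits only, 5, 1 and 0 were past it with LPS in the high, low and negative p27 classes. For LPS p27 high and low over negative the counts were then 0 and 1. For control p27 high over negative, high over low and low over negative they were 5, 1 and 1, and 3 for the difference.

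Leaving out each part of the cells gave medians of 0.18 to 0.26, 0.049 to 0.20 and 0.052 to 0.17 with LPS in the high, low and negative p27 classes, with 9 to 17, 9 to 12 and 3 to 5 members past the fold. It gave -0.14 to -0.041, -0.18 to -0.046 and -0.055 to 0.021 for p27 high over negative, high over low and low over negative under LPS, with 4 to 6, 1 to 5 and 3 to 6, and -0.34 to -0.17, -0.21 to -0.16 and -0.13 to -0.049 in control, with 10 to 11, 8 to 12 and 2 to 6. For the difference it gave 0.15 to 0.25, with 10 to 15. Under these settings shares of all genes past the fold were computed only for LPS over control with other scalings. The other counts are therefore not set against a background. Named folds that reversed were Psmc3ip for control p27 high over low, from -3.15 to 0.75 and highest without cells 33 to 64, and Psma8 for LPS p27 low over negative, from -0.030 to 1.999 and lowest without cells 65 to 96.

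The share of cells with a member was 86.6%, 89.2% and 96.4% in LPS cells (p27 high, low, negative) and 81.9%, 85.2% and 91.4% in control cells at 200000 reads, and 89.8%, 90% and 97.3% and 80.95%, 87.6% and 93.7% unthinned. With the longest transcript as length, Psma6, Psmb2, Psme1, Psma8, Psmd9 and Psme4 were at 386, 394, 466, 16.7, 28.7 and 7.25 RPKM. The cause of these changes was not tested. Of the other values of named folds under these settings, 443 moved by no more than the combined half-widths of the 95% Poisson intervals of the groups compared, which cover counting error only, and 227 moved by more.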
